A study of Mus musculus with 14 samples.

Results

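The genes described here are 39 mouse genes that type I interferon induces and whose products act against viruses. Each was taken from the arrays through the RefSeq accession of its probes. Of the 39 genes, 36 had a probe, while Mx1, Mx2 and Rnf213 matched none through the accession table used here. Ddx60, an RNA helicase, was not well above background on any of the 14 arrays, which left 35 members among the 15826 genes tested.

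Type I interferons are secreted proteins, chiefly the interferon-alpha family and interferon-beta, that bind the receptor chains Ifnar1 and Ifnar2. The receptor activates the kinases Jak1 and Tyk2, which phosphorylate STAT proteins, and these join Irf9 to form ISGF3, a factor that binds the interferon-stimulated response element in the promoters of target genes. The targets sense foreign nucleic acid, block viral entry, translation, replication and release, or limit the response itself. In macrophages, microbial products and nucleic acids from dying cells are known inducers of interferon-beta.

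The cells were macrophages grown for a week with recombinant M-CSF from bone marrow of female C57BL/6 mice of 8 weeks that carried LysM-Double-Cre, a Cre recombinase driven by the myeloid lysozyme gene. All groups carried that Cre. Transgenic cells also held a TFEB transgene, TFEB being a transcription factor of lysosome and autophagy genes, and cells without the transgene are called wild-type here. After replating, cells of both genotypes spent 24 h in DMEM alone (control) or in DMEM with medium conditioned by EO771 cells, a mouse mammary tumour line, and lysate of the tumour cells (tumour material). There were 3 wild-type control replicates on 4 arrays, 3 wild-type tumour replicates on 4 arrays, 3 transgenic control replicates on 3 arrays and 2 transgenic tumour replicates on 3 arrays; transgenic tumour replicate 1 was not analysed here. The series calls the replicates biological, but the labels do not tie them to separate animals, so p-values measure the spread between these samples.

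Between 35.5% and 40.2% of probes on an array were well above background, and 0 spots were saturated. Arrays of a group correlated with each other at 0.979 to 0.994, except that transgenic control replicate 1 correlated with the others of its group at 0.957 and 0.959; changes of members and pathway genes in transgenic cells are therefore also given without it. The Tfeb probe differed between the genotypes by 0.31 ± 0.13 (SE, log2) in control medium (adjusted p = 0.164), which missed the threshold of 0.05, and by 0.69 ± 0.16 with tumour material (adjusted p = 0.0267). With that replicate left out these were 0.25 and 0.65. With all replicates in the fit, Tfeb itself fell with tumour material, by log2 -1.55 in wild-type and -1.16 in transgenic cells. Both changes passed the threshold. The Tfeb difference with tumour material missed the threshold under 6 alternative settings (adjusted p 0.0658 to 0.0976) and when 1 of 6 replicates was left out (wild-type control 3, each wild-type tumour replicate or either transgenic tumour replicate, 0.0516 to 0.203). Of 8 macrophage markers 7 were detected, including Adgre1, Csf1r and Cd68, and Lyz2 was not. The log2 of the summed linear level of all 8 stayed within 10.5 and 11.3 over all arrays. The brightest markers weigh most in such a sum, and single markers moved. With tumour material 4 rose and 1 fell in wild-type cells (log2 -0.76 to 2.09, 39.9% of all genes called). In transgenic cells 3 rose and 0 fell (25.3%). Between the genotypes 2 were lower in transgenic cells in control medium (8.83%) and 2 with tumour material (4.49%). None of 5 epithelial markers was well above background on all arrays of any group (Epcam, Krt8, Krt18, Krt19 and Cdh1) and the same held for 4 of 4 erythroid markers. Of other marker lists, 2 of 7 for T and NK cells, 2 of 6 for conventional dendritic cells, 3 of 4 for plasmacytoid dendritic cells and 1 of 4 for B cells were detected, with Cd3d, Cd8a, Flt3 and Xcr1 among those that were not. The B cell marker, Cd79b, fell with tumour material in both genotypes (log2 -2.74 and -2.21). Of the conventional dendritic markers Clec9a changed by 1.26 and 2.35 and Itgax by -1.44 and -1.95, and each change passed the threshold. The log2 of the summed linear level of 8 neutrophil markers was 7.82 to 7.95 in wild-type controls and 5.73 to 6.51 with tumour material. In transgenic cells it was 7.46 to 9.15 and 4.88 to 5.13. That of 6 fibroblast markers, 5 of them detected, was 0.479 to 4.55 and 5.0 to 5.44 in wild-type cells, and -0.0932 to 3.29 and 2.70 to 3.20 in transgenic cells. For the B cell list the log2 of the summed level was 1.39 to 1.89 and -0.875 to -0.103 in wild-type cells. It was 1.33 to 3.31 and -0.266 to 0.0381 in transgenic cells. The part of these cells in the results below was not tested.

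The promoters are shown because ISGF3 acts through a short element near the start of its targets. RefSeq windows (build GRCm38.p6) were at hand for 30 of the 39 members, and the 250 bases before each start were searched on both strands. The core of the interferon-stimulated response element was taken as GAAA, any 2 bases and GAAA again, and the core of the gamma activated sequence, where STAT dimers bind, as TTCNNNGAA, with N for any base. The first was present in 8 of 30 members (26.7%) and in 3.46% of 27025 genes with a window. The second was present in 5 of 30 members (16.7%) and in 8.13% of all genes. Bst2 and Oas1a held both cores, and 19 members held neither, which says only that these letters were not in these windows. Where the first core was found, the copy nearest the start ended 5 to 115 bases before it. The 4 members with this core and the largest rise in wild-type cells were Rsad2, Ifit1, Isg15 and Bst2, whose 250 bases before the start follow with the core in capitals. Where the core lies on the other strand it reads TTTC, any 2 bases and TTTC.

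Rsad2 (chr12:26456453-26456702, minus strand): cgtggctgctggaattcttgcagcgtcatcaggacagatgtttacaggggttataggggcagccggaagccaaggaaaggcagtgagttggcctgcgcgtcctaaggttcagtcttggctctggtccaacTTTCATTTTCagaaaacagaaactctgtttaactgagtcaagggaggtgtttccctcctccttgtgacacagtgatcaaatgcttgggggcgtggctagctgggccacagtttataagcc
Ifit1 (chr19:34640639-34640888, plus strand): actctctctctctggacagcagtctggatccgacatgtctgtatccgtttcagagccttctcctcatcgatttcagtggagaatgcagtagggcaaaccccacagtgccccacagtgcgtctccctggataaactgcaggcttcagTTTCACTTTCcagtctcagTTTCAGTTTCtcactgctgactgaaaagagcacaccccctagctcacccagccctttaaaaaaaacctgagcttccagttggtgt
Isg15 (chr4:156200819-156201068, minus strand): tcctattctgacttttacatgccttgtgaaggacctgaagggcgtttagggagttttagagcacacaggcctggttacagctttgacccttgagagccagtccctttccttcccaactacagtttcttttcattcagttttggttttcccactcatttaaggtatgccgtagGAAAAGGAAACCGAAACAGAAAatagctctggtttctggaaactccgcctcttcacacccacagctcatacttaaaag
Bst2 (chr8:71537473-71537722, minus strand): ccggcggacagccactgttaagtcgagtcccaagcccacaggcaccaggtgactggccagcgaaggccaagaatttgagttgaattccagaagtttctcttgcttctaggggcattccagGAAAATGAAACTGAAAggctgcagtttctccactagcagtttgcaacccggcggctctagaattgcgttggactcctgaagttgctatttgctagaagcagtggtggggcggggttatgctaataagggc

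Isg15 held 3 overlapping copies in 1 run, Bst2 held 2 overlapping copies, Ifit1 held 2 separate ones and Rsad2 held 1. Cmpk2, which differed most between the genotypes in control medium, and Ifi44, whose responses differed most between the genotypes, held neither core. Their windows are given for comparison. Cmpk2 and Rsad2 both lie on chromosome 12, on opposite strands.

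Cmpk2 (chr12:26468965-26469214, plus strand): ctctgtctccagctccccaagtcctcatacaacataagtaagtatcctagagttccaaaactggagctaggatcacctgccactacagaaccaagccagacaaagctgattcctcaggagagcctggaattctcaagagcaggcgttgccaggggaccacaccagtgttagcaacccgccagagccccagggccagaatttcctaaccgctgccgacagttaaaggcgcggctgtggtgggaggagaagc
Ifi44 (chr3:151749911-151750160, minus strand): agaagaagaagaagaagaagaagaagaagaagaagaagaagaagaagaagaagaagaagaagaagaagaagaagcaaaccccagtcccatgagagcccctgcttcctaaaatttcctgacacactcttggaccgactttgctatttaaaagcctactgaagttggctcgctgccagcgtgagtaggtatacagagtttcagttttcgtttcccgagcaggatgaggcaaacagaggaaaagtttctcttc

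Among the members with a window, the 7 tested ones with the response element core rose in wild-type cells by a median of 1.15 (log2) and the 21 without it by a median of 0.84, with overlapping ranges of 0.35 to 2.31 and 0.28 to 2.37.

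Tumour material raised most of these genes in both genotypes. A log2 level below is the log2 signal minus the log2 of that array's 75th percentile, a log2 fold change is from a limma fit with its SE, and adjusted p-values cover all 15826 genes. The leave-out value is the transgenic log2 change computed without transgenic control replicate 1. In wild-type cells 29 of 35 members rose and 0 fell, where 23.2% of all genes tested rose and 16.7% fell (39.9% either way). The median of the 35 log2 fold changes was 0.91, against 0.047 over all genes, and all 35 were above 0. In transgenic cells 25 of 35 rose and 0 fell, where 15.1% of all genes rose and 10.1% fell (25.3% either way), with a median of 0.99 against 0.061 over all genes. The rises past the threshold ran from 1.32-fold to 5.15-fold in wild-type cells and from 1.42-fold to 5.67-fold in transgenic cells. Of the 35 members 23 passed in both genotypes and 4 in neither, 6 passed in wild-type and missed the threshold in transgenic cells, and 2 did the reverse. These are bulk samples, so a higher level per cell and more cells with that level cannot be told apart.

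The replicates did not overlap, with tumour material above control, for 32 members in wild-type cells (32.4% of all genes tested) and for 26 in transgenic cells (29.5%). Without transgenic control replicate 1 the transgenic count was 31, which held all 25, and the median was 1.24, where 33.4% of all genes were called either way. The transgenic count was smaller without transgenic control replicate 3, at 15 (18% of all genes called either way), and without transgenic tumour replicate 3, at 10 (14.6%), where 1 replicate was left and was assumed to vary like the other groups. With only the 5 transgenic replicates in the fit it was 0, where 1.18% of all genes were called, and the median was 1.06. All 3 transgenic tumour arrays lay on slide 2 with 1 of the 3 transgenic controls, so this fit, which has a slide term, compares tumour material with that control alone, and in the main comparison the transgenic response is partly aligned with the slide. Within slide 2, with no test, the median over members was 0.96 in wild-type and 1.06 in transgenic cells.

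**Figure D1:**
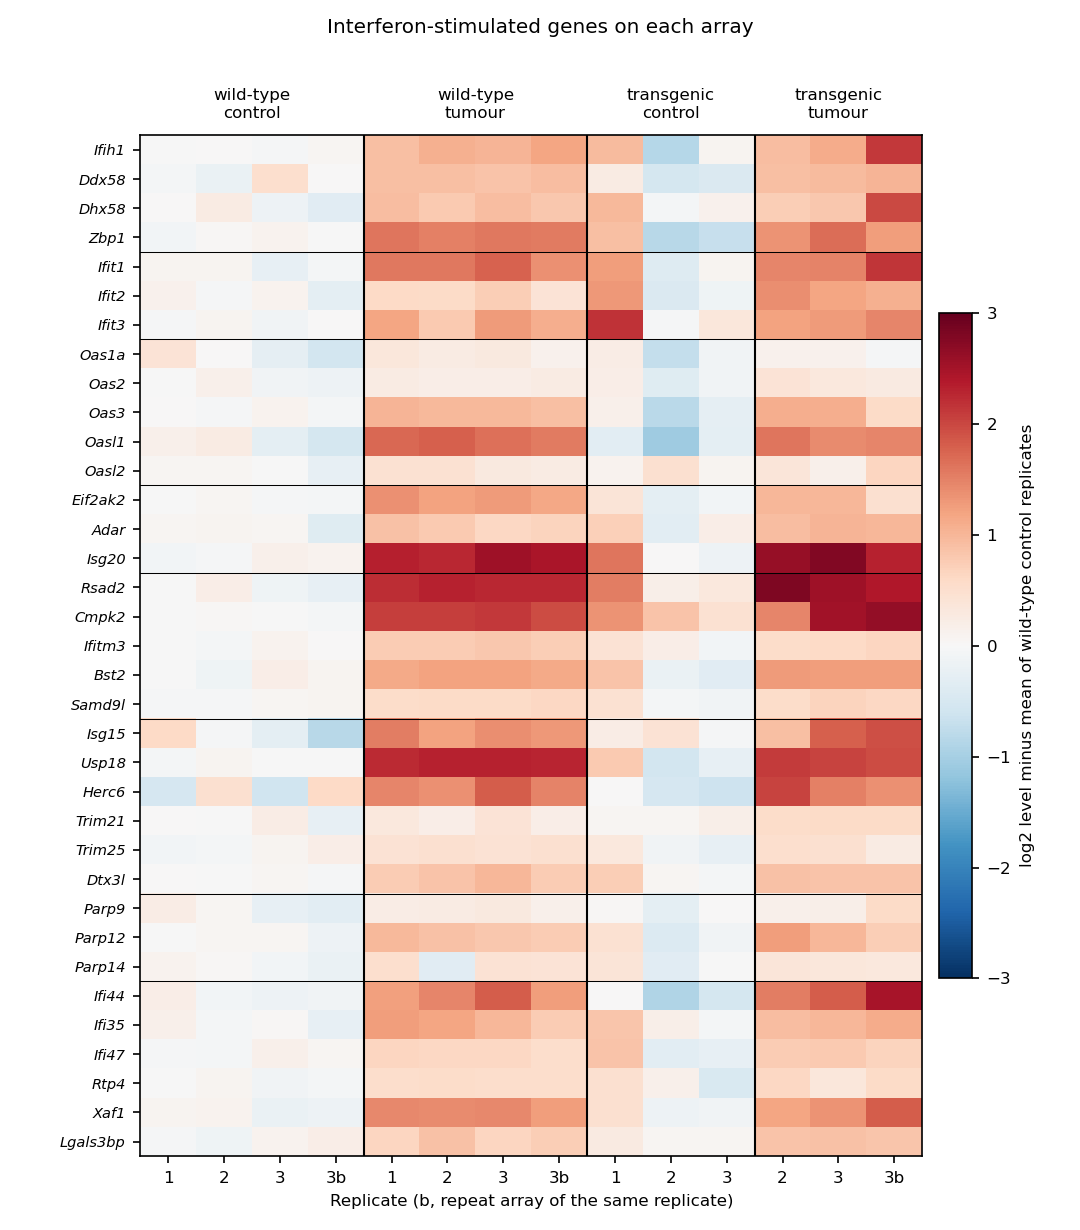
Colours give the log2 level of each of the 35 tested members (lines, ordered by role) on each of the 14 arrays, minus the mean of the wild-type control replicates for that gene; columns are arrays by group, and b marks a repeat array of a replicate. Both tumour groups are red along most lines, and transgenic control replicate 1 has a higher value than transgenic control replicates 2 and 3 for 31 of the 35 genes.

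Isg20, an exonuclease that degrades single-stranded RNA, had the largest rise in wild-type cells. Below, levels stand in the order of replicates 1, 2 and 3, then the repeat array of replicate 3 where there was one; transgenic tumour levels are of replicates 2 and 3 and the repeat of 3. Its log2 level was 5.28, 5.33, 5.52 and 5.49 in wild-type controls and 7.71, 7.64, 7.91 and 7.82 with tumour material, a change of 2.37 ± 0.31 (5.15-fold, adjusted p = 8.21e-05). In transgenic cells it was 6.98, 5.39 and 5.22 in control medium and 7.99, 8.14 and 7.68 with tumour material, a change of 2.23 ± 0.40 (adjusted p = 0.00161). Every tumour array lay above every control array in both genotypes, and transgenic control replicate 1 lay above the other controls. Without it the transgenic change was 2.61 ± 0.16.

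The other effectors that act on RNA rose as well. Eif2ak2, the kinase PKR that stops translation on double-stranded RNA, rose by 1.27 ± 0.16 in wild-type and 0.89 ± 0.21 (leave-out value 1.0) in transgenic cells. Adar, which edits adenosines in double-stranded RNA, rose by 0.78 ± 0.19 and 0.90 ± 0.24 (leave-out value 1.08).

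Of the sensors, all 4 tested members rose in wild-type cells and 2 in transgenic cells. Zbp1, which binds left-handed nucleic acid and can start cell death, stood at 6.04, 6.14, 6.22 and 6.11 in wild-type controls and 7.71, 7.63, 7.69 and 7.67 with tumour material, a rise of 1.55 ± 0.30 (adjusted p = 0.00151). Transgenic levels of Zbp1 were 7.03, 5.29 and 5.43 in control medium and 7.46, 7.80 and 7.36 with tumour material, a rise of 1.77 ± 0.39 (adjusted p = 0.00583). The groups did not overlap in either genotype, and transgenic control replicate 1 stood above the wild-type controls while replicates 2 and 3 stood below them. Without replicate 1 the transgenic rise of Zbp1 was 2.17 ± 0.13.

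Ddx58, which encodes the RNA sensor RIG-I, rose by 0.83 ± 0.18 in wild-type and 1.28 ± 0.24 (leave-out value 1.43) in transgenic cells; a dimmer second probe changed by 0.08 in wild-type cells. Ifih1 encodes MDA5, the sensor of long double-stranded RNA. In wild-type cells it stood at 3.44, 3.45, 3.43 and 3.50 in control medium and 4.35, 4.52, 4.46 and 4.63 with tumour material, a rise of 1.03 ± 0.34 (adjusted p = 0.0302). In transgenic cells Ifih1 stood at 4.40, 2.61 and 3.54 and 4.37, 4.57 and 5.56, a difference of 1.24 ± 0.44 that missed the threshold (adjusted p = 0.061). Control replicate 1 overlapped the tumour levels, and the repeat array of transgenic tumour replicate 3 read higher than its first array. Without control replicate 1 the transgenic difference of Ifih1 was 1.63 ± 0.31 (adjusted p = 0.00201).

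Dhx58 encodes LGP2, a helicase that tunes the other RNA sensors. Its wild-type levels were 2.21, 2.45, 2.05 and 1.86 in control medium and 3.13, 2.98, 3.12 and 3.0 with tumour material, a rise of 0.91 ± 0.28 (adjusted p = 0.0238). Transgenic levels of Dhx58 were 3.18, 2.14 and 2.32 and 2.95, 3.0 and 4.18, a difference of 0.99 ± 0.37 (adjusted p = 0.0735). Tumour and control levels overlapped only in transgenic cells, through control replicate 1, and without it the difference was 1.24 ± 0.32 (adjusted p = 0.0114).

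The IFIT proteins bind viral RNA and block its translation. Ifit1, which recognises caps that lack a methyl group, stood at 0.021, 0.026, -0.29 and -0.11 in wild-type controls and 1.54, 1.54, 1.73 and 1.33 with tumour material, a rise of 1.62 ± 0.29 (adjusted p = 0.000927). Transgenic levels of Ifit1 were 1.20, -0.43 and 0.027 and 1.40, 1.44 and 2.09, a rise of 1.52 ± 0.38 (adjusted p = 0.012). Tumour and control levels of Ifit1 did not overlap in either genotype, though transgenic control replicate 1 approached the tumour levels. Without it the transgenic rise of Ifit1 was 1.86 ± 0.23.

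Ifit2 and Ifit3 are further members of the family, which act alone or in a complex with Ifit1. Ifit2 stood at 2.83, 2.69, 2.82 and 2.42 in wild-type controls and 3.30, 3.30, 3.45 and 3.12 with tumour material; the groups did not overlap, but the difference of 0.60 ± 0.28 missed the threshold (adjusted p = 0.107). In transgenic cells Ifit2 stood at 4.01, 2.29 and 2.57 and 4.11, 3.90 and 3.79, a rise of 1.23 ± 0.36 (adjusted p = 0.0268), with control replicate 1 at the tumour level. Without that replicate the transgenic rise of Ifit2 was 1.55 ± 0.16, and the wild-type rise passed too, at 0.61 ± 0.11 (adjusted p = 0.000925).

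Ifit3 stood at 4.53, 4.65, 4.47 and 4.59 in wild-type controls and 5.75, 5.36, 5.85 and 5.66 with tumour material, a rise of 1.09 ± 0.37 (adjusted p = 0.0328). Transgenic levels of Ifit3 were 6.75, 4.53 and 4.92 and 5.77, 5.85 and 6.04, a difference of 0.62 ± 0.48 (adjusted p = 0.386). Transgenic control replicate 1 lay above every tumour array of either genotype, and without it the difference of Ifit3 was 1.11 ± 0.17 (adjusted p = 0.00043). Ifit3 has a near-identical neighbour, Ifit3b, so the share of each in this signal is uncertain.

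The OAS enzymes make the 2-5A messenger that switches on RNase L, and their members moved unevenly: 3 of 5 rose in wild-type cells and 2 of 5 in transgenic cells. Oasl1, a member without that activity that restrains translation of Irf7, rose most. It stood at 3.14, 3.24, 2.70 and 2.47 in wild-type controls and 4.70, 4.78, 4.64 and 4.55 with tumour material, a rise of 1.77 ± 0.20 (adjusted p = 3.12e-05). Transgenic levels of Oasl1 were 2.67, 1.92 and 2.70 and 4.59, 4.40 and 4.45, a rise of 2.13 ± 0.26 (adjusted p = 0.000125, leave-out value 2.20). Tumour and control levels of Oasl1 were well apart in both genotypes, and transgenic control replicate 1 was not high here. Oas3 rose by 0.97 ± 0.19 in wild-type and 1.26 ± 0.25 (leave-out value 1.40) in transgenic cells.

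Oasl2, a relative that binds nucleic acid sensors, stood at 4.84, 4.85, 4.76 and 4.55 in wild-type controls and 5.25, 5.24, 5.08 and 5.02 with tumour material, a rise of 0.40 ± 0.12 (adjusted p = 0.0227). In transgenic cells Oasl2 stood at 4.88, 5.26 and 4.85 and 5.14, 4.94 and 5.41, a difference of 0.31 ± 0.16 (adjusted p = 0.187, leave-out value 0.25). Here transgenic control replicate 2 was the high one and overlapped the tumour levels.

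Oas1a and Oas2 passed in neither genotype. Oas2 stood at 6.55, 6.71, 6.45 and 6.41 in wild-type controls and 6.82, 6.76, 6.75 and 6.82 with tumour material, a difference of 0.25 ± 0.12 (adjusted p = 0.125). In transgenic cells Oas2 stood at 6.77, 6.21 and 6.46 and 6.97, 6.88 and 6.84, a difference of 0.45 ± 0.16 (adjusted p = 0.0598). The groups did not overlap in either genotype, with small gaps. Oas2 passed in both genotypes without transgenic control replicate 1, at 0.27 ± 0.088 in wild-type (adjusted p = 0.0267) and 0.55 ± 0.13 in transgenic cells (adjusted p = 0.00643).

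Oas1a stood at 7.05, 6.66, 6.37 and 6.09 in wild-type controls and 6.98, 6.90, 6.93 and 6.78 with tumour material, a difference of 0.35 ± 0.21 (adjusted p = 0.217). In transgenic cells Oas1a stood at 6.88, 5.93 and 6.53 and 6.78, 6.77 and 6.60, a difference of 0.42 ± 0.28 (adjusted p = 0.308, leave-out value 0.55). Both pairs of groups overlapped. A second, dimmer probe of Oas1a changed by 1.0 in wild-type cells, so the 2 probes disagreed, and the Oas1 genes form a cluster of near-identical copies.

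Members that block entry, replication or release all rose in both genotypes, 5 of 5 tested. Rsad2 encodes viperin, an enzyme that makes a chain-terminating nucleotide. Its log2 level was 3.44, 3.66, 3.34 and 3.22 in wild-type controls and 5.68, 5.77, 5.72 and 5.73 with tumour material, a rise of 2.31 ± 0.24 (4.95-fold, adjusted p = 1.43e-05). Transgenic levels of Rsad2 were 4.99, 3.65 and 3.78 and 6.26, 6.01 and 5.86, a rise of 2.07 ± 0.31 (4.2-fold, adjusted p = 0.000491, leave-out value 2.34). Wild-type arrays of a medium lay close together, and transgenic control replicate 1 lay between the controls and the tumour levels. Tumour and control levels did not overlap in either genotype.

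Cmpk2, a mitochondrial nucleotide kinase that feeds viperin's substrate, stood at 3.20, 3.24, 3.20 and 3.13 in wild-type controls and 5.27, 5.26, 5.32 and 5.16 with tumour material, a rise of 2.06 ± 0.23 (4.17-fold, adjusted p = 2.91e-05). In transgenic cells Cmpk2 stood at 4.56, 4.04 and 3.67 and 4.66, 5.72 and 5.85, a rise of 1.48 ± 0.30 (2.79-fold, adjusted p = 0.00385, leave-out value 1.70). All 3 transgenic controls lay above the wild-type controls, and transgenic tumour replicate 2 was only just above transgenic control replicate 1. A second Cmpk2 probe of similar brightness rose by 2.12 in wild-type and 2.06 in transgenic cells and differed by 0.85 between the genotypes in control medium.

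Among the other blockers, Bst2 (tetherin, which holds budding virus on the cell surface) rose by 1.15 ± 0.21 in wild-type and 1.29 ± 0.27 (leave-out value 1.54) in transgenic cells. Ifitm3, which hinders fusion of virus with endosomes, rose by 0.75 ± 0.10 and 0.51 ± 0.13 (leave-out value 0.59). Samd9l, an inhibitor of viral translation, rose by 0.57 ± 0.12 and 0.55 ± 0.16 (leave-out value 0.68).

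The ISG15 system attaches and removes a ubiquitin-like tag, and 5 of its 6 tested members, ubiquitin ligases included, rose in each genotype. Usp18, which removes ISG15 and dampens signalling at the receptor, had the lowest adjusted p of the members in wild-type cells. It stood at 3.64, 3.78, 3.69 and 3.70 in wild-type controls and 5.95, 6.02, 6.01 and 5.99 with tumour material, a rise of 2.29 ± 0.22 (4.89-fold, adjusted p = 8.56e-06). Transgenic levels of Usp18 were 4.50, 3.16 and 3.46 and 5.80, 5.72 and 5.67, a rise of 2.10 ± 0.29 (4.29-fold, adjusted p = 0.000254, leave-out value 2.38). Tumour levels of Usp18 were tight and far above every control, transgenic control replicate 1 included.

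Isg15, the tag itself, varied more among controls. It stood at 6.80, 6.16, 5.92 and 5.38 in wild-type controls and 7.74, 7.41, 7.60 and 7.49 with tumour material, a rise of 1.48 ± 0.25 (adjusted p = 0.000693). Transgenic levels of Isg15 were 6.42, 6.63 and 6.18 and 7.12, 7.99 and 8.13, a rise of 1.62 ± 0.33 (adjusted p = 0.00391, leave-out value 1.64). Tumour and control levels did not overlap in either genotype, and transgenic control replicate 1 was not the highest of its group.

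Herc6, the main ISG15 ligase of the mouse, stood at -0.59, 0.40, -0.68 and 0.51 in wild-type controls and 1.37, 1.28, 1.73 and 1.40 with tumour material, a rise of 1.53 ± 0.29 (adjusted p = 0.00135). Transgenic levels of Herc6 were -0.093, -0.59 and -0.71 and 1.94, 1.42 and 1.28, a rise of 1.92 ± 0.38 (adjusted p = 0.00305, leave-out value 2.05). Tumour and control levels did not overlap in either genotype, and the 2 arrays of wild-type control replicate 3 differed by more than 1 log2 unit. Dtx3l, the ligase that pairs with Parp9, rose by 0.84 ± 0.14 and 0.75 ± 0.19 (leave-out value 0.90).

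Trim25, a ligase that aids RIG-I signalling, stood at 8.59, 8.62, 8.75 and 8.87 in wild-type controls and 9.11, 9.15, 9.10 and 9.16 with tumour material, a rise of 0.43 ± 0.13 (adjusted p = 0.0231). In transgenic cells Trim25 stood at 8.99, 8.57 and 8.42 and 9.18, 9.15 and 8.91, a difference of 0.44 ± 0.17 that missed the threshold (adjusted p = 0.0875). The arrays overlapped through control replicate 1, though the replicate means did not, and without control replicate 1 the transgenic difference of Trim25 was 0.55 ± 0.13 (adjusted p = 0.0066). Trim21, a cytosolic antibody receptor, stood at 2.34, 2.30, 2.55 and 2.08 in wild-type controls and 2.64, 2.52, 2.73 and 2.51 with tumour material, a difference of 0.28 ± 0.11 (adjusted p = 0.0536). Transgenic levels of Trim21 were 2.37, 2.38 and 2.50 and 2.87, 2.89 and 2.90, a rise of 0.55 ± 0.14 (adjusted p = 0.0128, leave-out value 0.50). All transgenic tumour arrays of Trim21 lay above all others, and 1 array of wild-type control replicate 3 lay above 2 of the wild-type tumour arrays. Trim21 also passed in wild-type cells without transgenic control replicate 1 (0.28 ± 0.09, adjusted p = 0.0215).

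Of the PARPs, which attach ADP-ribose, Parp12 rose by 0.87 ± 0.17 in wild-type and 1.12 ± 0.22 (leave-out value 1.25) in transgenic cells, and Parp9 and Parp14 passed in neither. Parp9 stood at 2.72, 2.56, 2.25 and 2.18 in wild-type controls and 2.72, 2.74, 2.80 and 2.64 with tumour material, a difference of 0.29 ± 0.15 (adjusted p = 0.139). In transgenic cells Parp9 stood at 2.53, 2.20 and 2.50 and 2.64, 2.67 and 3.07, a difference of 0.45 ± 0.19 (adjusted p = 0.109, leave-out value 0.50). The wild-type groups of Parp9 overlapped and the transgenic ones did not.

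Parp14 stood at 5.50, 5.43, 5.31 and 5.18 in wild-type controls and 5.89, 5.04, 5.83 and 5.80 with tumour material, a difference of 0.27 ± 0.20 (adjusted p = 0.308). In transgenic cells Parp14 stood at 5.78, 5.06 and 5.39 and 5.75, 5.74 and 5.71, a difference of 0.34 ± 0.26 (adjusted p = 0.394, leave-out value 0.46). Wild-type tumour replicate 2 was below the controls, transgenic control replicate 1 was above the transgenic tumour levels, and both pairs of groups overlapped.

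The remaining induced proteins all rose in wild-type cells, 6 of 6, and 5 of 6 in transgenic cells. Ifi44, a cytoplasmic protein induced in many viral infections, had the largest transgenic rise. It stood at -1.25, -1.52, -1.60 and -1.55 in wild-type controls and -0.21, 0.024, 0.36 and -0.20 with tumour material, a rise of 1.47 ± 0.24 (2.77-fold, adjusted p = 0.000442). Transgenic levels of Ifi44 were -1.45, -2.35 and -1.98 and 0.077, 0.36 and 1.02, a rise of 2.50 ± 0.31 (5.67-fold, adjusted p = 0.000124, leave-out value 2.69). Its transgenic controls reached lower and its transgenic tumour arrays reached higher than the wild-type ones, with overlap between the genotypes in each medium.

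Xaf1, which binds the apoptosis inhibitor XIAP, stood at 4.03, 4.05, 3.74 and 3.80 in wild-type controls and 5.40, 5.36, 5.38 and 5.21 with tumour material, a rise of 1.43 ± 0.16 (adjusted p = 3.42e-05). Transgenic levels of Xaf1 were 4.43, 3.79 and 3.85 and 5.14, 5.29 and 5.76, a rise of 1.49 ± 0.21 (adjusted p = 0.000368, leave-out value 1.65). Tumour and control levels did not overlap in either genotype, but a dimmer second probe of Xaf1 changed by -0.07 in wild-type cells.

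Ifi47, an immunity-related GTPase, stood at 6.35, 6.34, 6.55 and 6.46 in wild-type controls and 7.04, 7.02, 7.02 and 6.93 with tumour material, a rise of 0.58 ± 0.21 (adjusted p = 0.0415). In transgenic cells Ifi47 stood at 7.25, 6.09 and 6.16 and 7.15, 7.19 and 7.07, a difference of 0.75 ± 0.27 (adjusted p = 0.0619). Transgenic control replicate 1 overlapped the tumour levels of Ifi47, and without it the difference was 1.0 ± 0.11 (adjusted p = 3.93e-05).

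Ifi35, which binds other interferon-induced proteins, rose by 1.08 ± 0.14 in wild-type and 0.97 ± 0.18 (leave-out value 1.13) in transgenic cells. Rtp4, a chaperone of membrane receptors, rose by 0.56 ± 0.15 and 0.62 ± 0.20 (leave-out value 0.75). Lgals3bp, a secreted glycoprotein, rose by 0.70 ± 0.11 and 0.71 ± 0.14 (leave-out value 0.77), while its dimmer second probe changed by 0.03 in wild-type cells. Of the 36 members with a probe, 23 had 1 and 13 had 2.

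**Figure D2:**
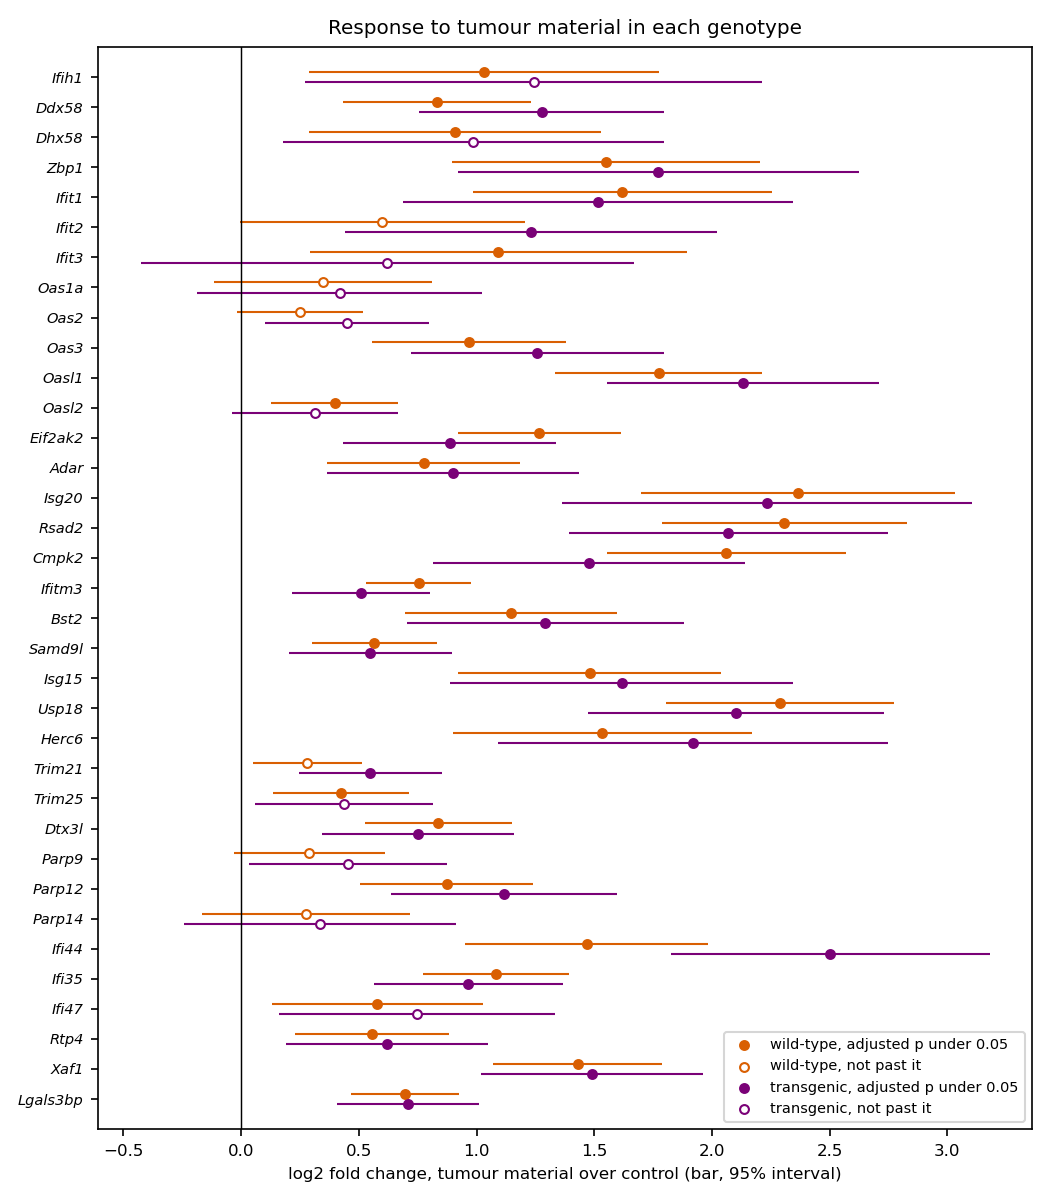
Points are log2 fold changes of the 35 tested members between tumour material and control in wild-type and transgenic cells, bars are 95% intervals, and filled points passed an adjusted p of 0.05. All points lie above 0, and the intervals of the genotypes overlap for every gene.

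In control medium the genotypes differed for 1 of 35 members, Cmpk2, which was 1.89-fold higher in transgenic cells (log2 0.92 ± 0.25, adjusted p = 0.0414), where 3.59% of all genes were higher and 5.24% lower (8.83% either way). Its replicates did not overlap, as was so with higher transgenic levels for 3 members and with lower levels for 0 (8.95% and 12.5% of all genes tested). The median over members was 0.096, against -0.032 over all genes, and 24 of 35 values were above 0. At an unadjusted p under 0.05, 3 of 35 members differed, against 25.1% of all genes. The call of Cmpk2 was lost when any 1 of the 6 wild-type replicates was left out, which gave a count of 0.

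This comparison turned on transgenic control replicate 1. That replicate had the highest level of the 3 transgenic controls for 31 of 35 members, as it had for 37.5% of all genes tested. Its members lay a median of 0.70 (log2) above the mean of replicates 2 and 3, with a range of -0.18 to 2.02, against -0.0019 over all genes. Measured from the wild-type control mean, the median over members was 0.45 in replicate 1, -0.29 in replicate 2 and -0.10 in replicate 3, where the wild-type control arrays ran from -0.07 to 0.03. The same replicate was high in the neutrophil genes Mpo (5.85, 3.88 and 4.22 in the 3 transgenic controls), Camp (7.39, 3.21 and 3.28) and Ltf (6.17, 2.53 and 3.56). These are 3 of the 8 neutrophil markers, and the levels of the others in this replicate are not given here. Replicate 1 was also high in Ifnb1, at -1.48, -4.93 and -4.81. Over all 8 neutrophil markers the difference between transgenic and wild-type controls was mixed (log2 -0.95 to 2.63). It was positive for 5 and negative for 3, and 3 passed as higher, against 3.59% of all genes. Replicates 1 and 2 both lay in slide column 4, where the spatial correction was largest (0.253 to 0.331 per array, against 0.0964 to 0.126 on the other arrays). With that column as a term 0 of 35 members differed between the genotypes in control medium, and the median was 0.027. No wild-type array lay in that column, so the term also takes up part of any genotype difference. The part of the neutrophil genes in these values was not tested.

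Without replicate 1 the median over members turned to -0.12, with 10 of 35 values above 0. Then 4 of 35 members were lower in transgenic controls. Of all 15826 genes 1511 were lower and 1194 higher there (17.1% either way), so the members' share lay near that of all genes. The 4 members were Zbp1 (-0.78 ± 0.12, adjusted p = 0.00128), Ddx58 (-0.57 ± 0.16, 0.0346), Oas3 (-0.57 ± 0.17, 0.0408) and Usp18 (-0.41 ± 0.10, 0.0182). Usp18 had been at 0.014 with all replicates. The difference of Cmpk2 then missed the threshold, at 0.71 ± 0.27 (adjusted p = 0.1). Without replicate 2, in contrast, 4 of 35 members were higher, the median was 0.26 and 30 of 35 values were above 0. Of all 15826 genes 605 were higher and 786 lower in that fit (8.79% either way).

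**Figure D3:**
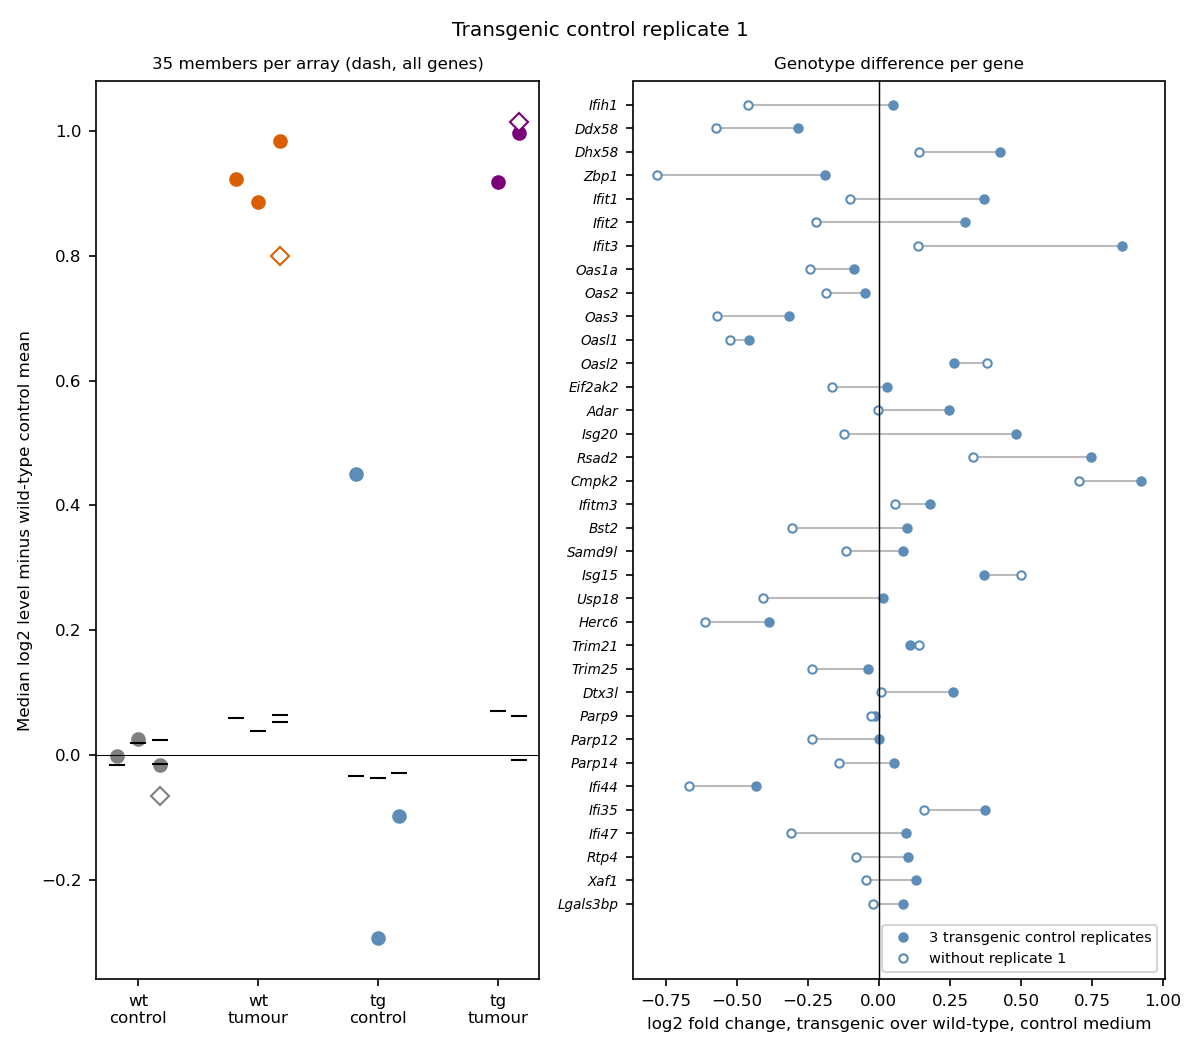
Left, the median log2 level of the 35 members on each array minus the wild-type control mean (circles; diamonds, repeat arrays), with dashes for all genes; right, the log2 difference between transgenic and wild-type cells in control medium for each member with all 3 transgenic controls (filled) and without replicate 1 (open). Transgenic control replicate 1 sits at 0.45, between the other controls and the tumour arrays, and most open points lie left of the filled ones.

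With tumour material 0 of 35 members differed between the genotypes, where 1.96% of all genes were higher and 2.53% lower in transgenic cells (4.49% either way). At an unadjusted p under 0.05, 2 members differed, against 18.2% of all genes. The differences ran from -0.35 for Eif2ak2 to 0.93 for Ifit2, with a median of 0.18. The lowest adjusted p was 0.168, for Trim21 at 0.38 ± 0.14. Replicates did not overlap for 10 members with higher and 6 with lower transgenic levels (22% and 26% of all genes tested). The 95% intervals lay within -1 and 1 for 26 of 35 members, so a 2-fold difference lay outside them, and for the other 9 it did not. Without transgenic control replicate 1, which enters through the slide term and the pooled spread, Ifit2 was higher by 0.72 ± 0.15 (adjusted p = 0.0095), where 13% of all genes were called either way. The count was 2 without transgenic control replicate 2, with 7.65% of all genes called.

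The size of the response itself differed between the genotypes for 0 of 35 members, where 1.02% of all genes had a larger and 0.923% a smaller change in transgenic cells. An unadjusted p under 0.05 was found for 1 member, against 12.4% of all genes. That member was Ifi44, with a difference of 1.04 ± 0.39, transgenic minus wild-type (95% interval 0.18 to 1.89, adjusted p = 0.269). At the other end Cmpk2 had a difference of -0.58 ± 0.38 (95% interval -1.42 to 0.25, adjusted p = 0.63), while its second probe had one of -0.067. Within slide 2, with no test, the median difference was 0.056, and single genes moved: Herc6 from 0.39 to 1.46 and Isg15 from 0.14 to -0.70. The half-widths of the 95% intervals had a median of 0.73 and reached 1.32, and 21 of the 35 intervals lay within -1 and 1. Without transgenic control replicate 1, Ifit2 (0.94 ± 0.19, adjusted p = 0.0136) and Zbp1 (0.62 ± 0.16, adjusted p = 0.0423) had larger rises in transgenic cells, where 7.54% of all genes were called either way, and 30 of 35 values were above 0 in place of 23.

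**Figure D4:**
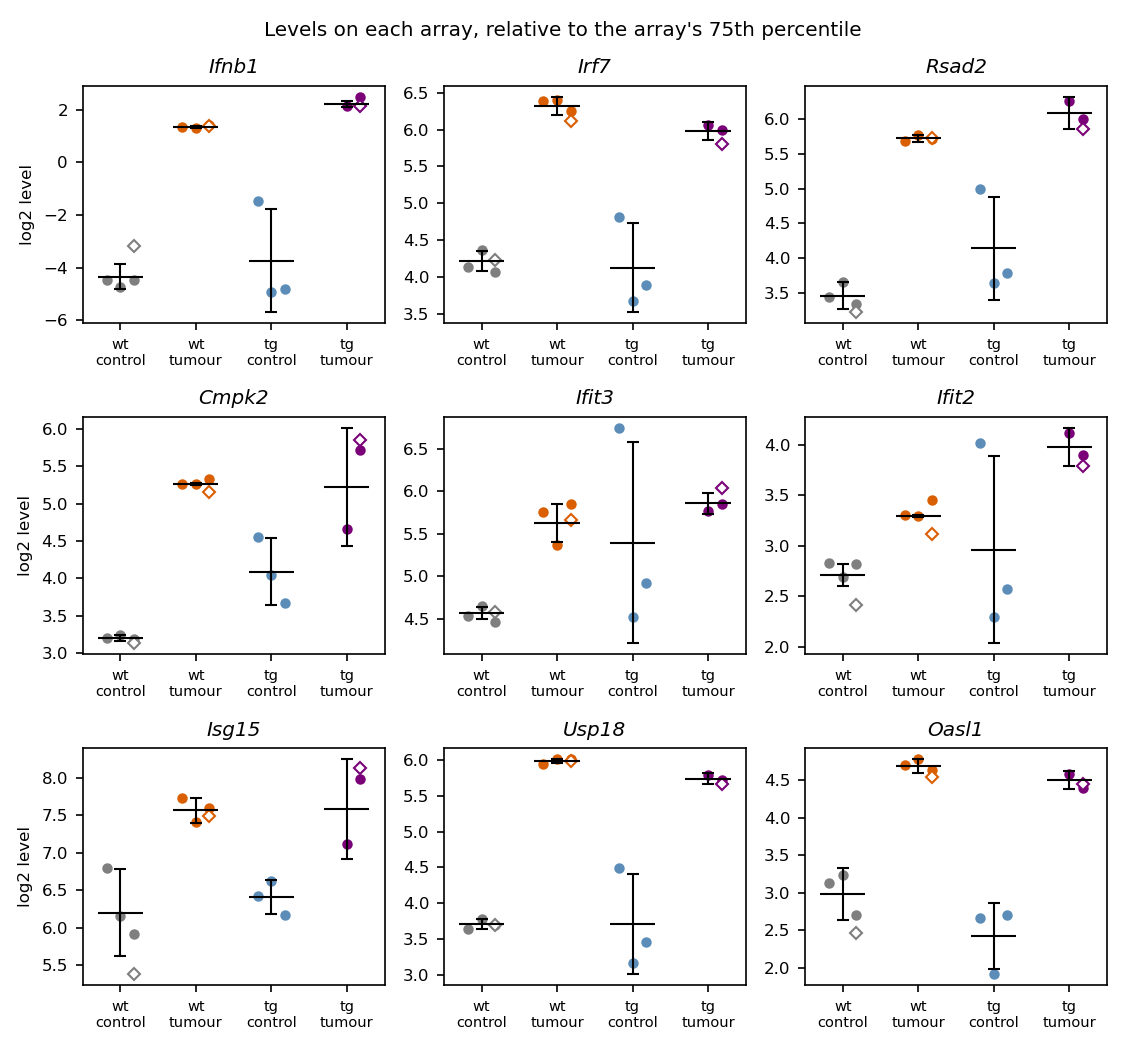
Log2 levels on each array, relative to the array's 75th percentile, for Ifnb1, Irf7 and 7 members in the 4 groups (wt, wild-type; tg, transgenic); circles are arrays, diamonds repeat arrays, and bars the mean and SD over replicates. Transgenic control replicate 1, the leftmost blue point, stands above the other 2 transgenic controls for Ifnb1, Irf7, Rsad2, Cmpk2, Ifit3, Ifit2 and Usp18; Ifnb1 was not well above background in the other controls.

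The genes around the members in the pathway were measured on the same arrays, with 80 of 105 listed genes tested. Of these, 48 rose and 7 fell in wild-type cells, where 23.2% of all genes tested rose and 16.7% fell. In transgenic cells 42 of the 80 rose and 3 fell, where 15.1% of all genes rose and 10.1% fell. Among the ligands, Ifnb1, which encodes interferon-beta, was not well above background on any of the 4 wild-type control arrays, at -4.48, -4.75, -4.47 and -3.17, and stood at 1.33, 1.30, 1.43 and 1.37 with tumour material. It was at least 17.6-fold higher there (adjusted p = 3.65e-05). In transgenic cells Ifnb1 stood at -1.48, -4.93 and -4.81, with only replicate 1 well above background, and at 2.14, 2.49 and 2.13 with tumour material (log2 change 5.99 ± 0.85, adjusted p = 0.000319, leave-out value 6.85). Every tumour array of Ifnb1 lay above every control array. Ifnl3, an interferon-lambda, fell in wild-type cells (log2 -1.12) and missed the threshold in transgenic cells (log2 -0.62). In control medium Ifnl3 was lower in transgenic cells (log2 -1.18). That call was lost under several settings, such as normexp background correction (log2 -0.375, adjusted p = 0.16 in limma). The remaining 12 interferon genes with a probe were not tested because their probes were dim.

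The receptor chain Ifnar2 rose by 0.69 ± 0.11 in wild-type and 0.94 ± 0.14 (leave-out value 1.0) in transgenic cells. Ifnar1 stood at 4.62, 4.45, 4.57 and 4.50 in wild-type and 3.90, 4.09 and 3.96 in transgenic controls, a difference of -0.55 ± 0.13 (adjusted p = 0.0211); these groups did not overlap, and without transgenic control replicate 1 it was -0.51 ± 0.14. It missed the threshold without wild-type control replicate 1 (adjusted p = 0.0587) or 3 (0.131), and without the filter on dim probes (0.0648). It also missed it with only these groups (0.159) and with slide column 4 as a term (log2 -0.33, 0.239). That column held only transgenic arrays, so its term takes up part of any genotype difference. With tumour material Ifnar1 changed by 0.23 ± 0.12 in wild-type cells (adjusted p = 0.16) and rose by 0.47 ± 0.16 in transgenic cells (adjusted p = 0.0461), a call lost without transgenic control replicate 1 (0.41 ± 0.15, adjusted p = 0.0571). Of the 6 receptor genes tested, the interferon-gamma receptor chain Ifngr1 fell in both genotypes, with log2 changes of -0.76 ± 0.17 and -0.75 ± 0.22 (leave-out value -0.91), and Ifngr2 rose in both, by 0.39 ± 0.14 and 0.60 ± 0.18 (leave-out value 0.60).

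In the ISGF3 complex, Stat2 rose by 0.67 ± 0.14 and 0.87 ± 0.18 (leave-out value 0.99) and Irf9 by 0.52 ± 0.092 and 0.43 ± 0.12 (leave-out value 0.45). Jak2 rose by 1.37 ± 0.22 in wild-type and 1.25 ± 0.29 (leave-out value 1.52) in transgenic cells. Irf7, which carries the later wave of interferon synthesis, stood at 4.13, 4.36, 4.06 and 4.23 in wild-type controls and 6.39, 6.40, 6.25 and 6.12 with tumour material, a rise of 2.09 ± 0.20 (adjusted p = 9.39e-06). In transgenic cells Irf7 stood at 4.82, 3.68 and 3.88 and 6.06, 5.99 and 5.80, a rise of 1.94 ± 0.27 (adjusted p = 0.000259, leave-out value 2.18). Its tumour and control levels did not overlap in either genotype, and transgenic control replicate 1 was the highest control. Irf3, which starts interferon-beta transcription and is regulated mainly by phosphorylation, differed by 0.16 ± 0.12 and 0.17 ± 0.16 (leave-out value 0.16) and passed in neither genotype. Irf1 differed by 0.023 ± 0.18 in wild-type cells and by 0.68 ± 0.24 in transgenic cells (adjusted p = 0.0558), where it passed without transgenic control replicate 1 (0.86 ± 0.16, adjusted p = 0.0019).

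Of 13 tested sensors, adaptors and kinases upstream of interferon, 6 rose and 3 fell in wild-type cells (23.2% and 16.7% of all genes). In transgenic cells 3 of the 13 rose (15.1% of all genes). The kinase Tbk1 rose by 0.86 ± 0.11 and 0.77 ± 0.15 (leave-out value 0.79), and its relative Ikbke rose by 1.53 ± 0.27 in wild-type cells and differed by 1.02 ± 0.35 in transgenic cells (adjusted p = 0.0544), where it passed without transgenic control replicate 1 (1.36 ± 0.12, adjusted p = 1.11e-05). Sting1, the adaptor of cytosolic DNA sensing, fell in wild-type cells from 5.29, 5.22, 5.55 and 5.51 to 4.28, 4.21, 4.28 and 4.21 (adjusted p = 6.32e-06). In transgenic cells Sting1 stood at 5.09, 4.98 and 4.81 and 5.02, 5.15 and 5.08, and the difference of the responses was 1.29 ± 0.17 (adjusted p = 0.00325). Wild-type tumour arrays of Sting1 lay below all others, and the difference of the responses missed the threshold without wild-type tumour replicate 3 (adjusted p = 0.0717) or transgenic tumour replicate 3 (adjusted p = 0.0686). It was 1.35 ± 0.16 without transgenic control replicate 1.

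Of 10 tested inhibitors of signalling 5 rose and 2 fell in wild-type cells (23.2% and 16.7% of all genes). In transgenic cells 4 rose and 2 fell (15.1% and 10.1% of all genes). Socs1, which blocks JAK kinases, stood at 1.35, 1.32, 1.53 and 1.48 in wild-type controls and 6.79, 6.69, 6.75 and 6.77 with tumour material, a rise of 5.33 ± 0.10. Transgenic levels of Socs1 were 1.61, 1.32 and 1.36 and 6.12, 6.23 and 6.11, a rise of 4.72 ± 0.13 (leave-out value 4.78), and with tumour material it was lower in transgenic cells (log2 -0.60 ± 0.13, transgenic minus wild-type, adjusted p = 0.0202). That call was lost without wild-type tumour replicate 1 (0.0576) or 3 (0.273) or transgenic tumour replicate 3 (0.203), and under 4 alternative settings (adjusted p 0.0587 to 0.302). Socs3, which acts mainly on IL-6 type receptors, stood at 3.75, 2.27, 3.54 and 3.41 in wild-type and -1.11, -1.74 and -1.56 in transgenic controls. With tumour material it stood at 7.41, 8.81, 8.06 and 8.39 in wild-type and 7.09, 7.13 and 7.29 in transgenic cells, and the difference of the responses was 3.62 ± 0.57 (adjusted p = 0.00664). Transgenic controls of Socs3 lay far below wild-type controls, and transgenic tumour arrays also lay below wild-type tumour arrays, by less. The difference of the responses of Socs3 missed the threshold without wild-type tumour replicate 3 (adjusted p = 0.0843) or transgenic tumour replicate 3 (adjusted p = 0.128), under normexp background correction (0.0598) and with repeat arrays left out (0.0973); without transgenic control replicate 1 it was 3.79 ± 0.55.

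Of 36 further interferon-stimulated genes tested, 27 rose and 0 fell in wild-type cells (23.2% and 16.7% of all genes). In transgenic cells 24 rose and 0 fell (15.1% and 10.1% of all genes). Ifit1bl1, a relative of Ifit1, was at least 51.5-fold higher with tumour material in wild-type cells, where no control array was well above background. The chemokine Cxcl10 rose by 4.09 ± 0.48 in wild-type and 3.15 ± 0.62 (leave-out value 3.68) in transgenic cells. Cxcl9, a chemokine that interferon-gamma induces, rose by 2.90 ± 0.54 in wild-type cells and differed by 0.35 ± 0.71 in transgenic cells (adjusted p = 0.76; 0.98 ± 0.33 and adjusted p = 0.0439 without transgenic control replicate 1), a difference of the responses of -2.55 ± 0.89 that missed the threshold (adjusted p = 0.225). Without transgenic control replicate 1 that difference was -1.94 ± 0.41 (adjusted p = 0.0144).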

How the data were processed

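RNA (200 ng per sample, Cy3) was hybridised to 1-colour Agilent mouse arrays. The deposited intensities are spot signals that the scanner software had background-subtracted and spatially detrended, per the file headers (Agilent Feature Extraction 10.7.3.1), together with its marks for spots well above background. The authors also deposited a table of log2 values, used here as an alternative. How the authors normalized it is not stated by the labels.

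Here the log2 signal of each array was set relative to its 75th percentile (83.9 to 144 in signal over arrays). Between 166 and 270 uneven spots per array were left out. The filter kept 20199 probes that exceeded background throughout some group, and each gene was read from its brightest one. Names came from RefSeq accessions: of 55634 probes, 28311 had 1 symbol, 0 had several and 27323 had none. Probes without a symbol were grouped by accession. limma 3.58.1 in R 4.3.3 fitted group means with the slide as a term and a random block for repeat arrays (estimated correlation 0.0718), with Benjamini-Hochberg adjustment over 15826 genes and a threshold of 0.05. The arrays lay on 2 slides, with all transgenic tumour arrays on slide 2. "At least N-fold" sets the bright group's mean against, per dim array, the higher of the probe's own signal and the lowest signal well above background. The precision is limited by the number of replicates, 11 in all. At a block correlation of 0.0718 the fit weighed repeat arrays almost like further replicates. That estimate ran from -0.67 to 0.77 over the alternatives.

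The members and lists were chosen with earlier results of these data known. Every-array values were given for members passing between genotypes, for the 10 largest passing changes of each response and for members that did not pass. Pathway genes were named from a fixed set of 11 and from up to 3 passing genes of each list with the largest change; 1 gene of the fixed set is not reported here. Alternatives covered background correction, normalization, probe rules, slide terms, repeat arrays and left-out replicates. Background correction by normexp used median spot signals and was chosen after seeing the data.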

Additional observations from a re-analysis of the deposited data

Results flagged for a closer look

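Among the pathway genes around the members, the response to tumour material of 2 genes differed between the genotypes by the test of the difference itself. For Socs3 the difference, transgenic minus wild-type, was 3.62 (log2, SE 0.57, adjusted p = 0.00664 in limma), and the changes were 4.93 in wild-type and 8.55 in transgenic cells. Under normexp background correction it was 2.18 (adjusted p = 0.0598), with repeat arrays left out it was 3.76 (adjusted p = 0.0973), it missed the threshold without wild-type tumour replicate 3 (adjusted p = 0.0843) and without transgenic tumour replicate 3 (adjusted p = 0.128), and without transgenic control replicate 1 it was 3.79 (adjusted p = 0.00174). For Sting1 the difference was 1.29 (SE 0.17, adjusted p = 0.00325), with changes of -1.14 and 0.14. It missed the threshold without wild-type tumour replicate 3 (adjusted p = 0.0717) and without transgenic tumour replicate 3 (adjusted p = 0.0686), and it was 1.35 without transgenic control replicate 1. The cause of either difference was not tested. Among the 35 antiviral members tested, 0 passed this test.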

How the results depend on the processing

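In both responses the median over the 35 members stayed positive, with 0 member values below 0, under every alternative run. Of the 29 members that rose in wild-type cells, 20 passed under every alternative. The count of members that rose there was 22 to 33 over the left-out replicates (25.4% and 46.6% of all genes called either way at these ends). In transgenic cells it was 10 to 31 over the left-out replicates and 0 with only the groups of the comparison; besides that setting, 7 passed under every alternative (Ifi44, Isg20, Oas3, Oasl1, Parp12, Rsad2 and Usp18). The count between genotypes in control medium was 0 to 4 over the left-out replicates, 2 under normexp, and 0 without the filter on dim probes, without the slide term, with slide column 4 as a term, with averaged arrays and no slide term, and with only the groups of the comparison. With tumour material the count was 0 to 2 over the left-out replicates, with 2 without transgenic control replicate 2 (7.65% of all genes called either way). It was 1 with only the groups of the comparison (12.3% of all genes). Without the arrays of slide column 4, which left 1 transgenic control replicate, Ifit2 differed by 0.99 and Trim21 by 0.52 (log2) with tumour material. For the difference of the responses the count was 0 to 2 over the left-out replicates, with 2 without transgenic control replicate 1 (7.54% of all genes). Without the arrays of slide column 4 that difference was 0.84 for Ifit2. Without transgenic control replicate 1, Usp18 (-0.41, adjusted p = 0.0182) and Ifit1bl1 (-1.0, adjusted p = 0.0239) turned negative between genotypes in control medium (they reached 0.34 and 1.88 without transgenic control replicate 2), and under normexp the wild-type change of Irf5 was -0.0035. The cause of these changes was not tested.

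Replicate numbers showed no clear pairing of the samples. Over 15 same-numbered pairs from different groups the correlation of deviations ran from -0.481 to 0.155, and 3 of 11 replicates correlated best with their own number. Deviations from the mean of 2 or 3 replicates cannot exclude a pairing by design. With a replicate block the counts were 29, 25, 1, 0 and 0 in the order of the comparisons. Of all genes, 38.9%, 23.2%, 7.05%, 3.32% and 1.74% were then called either way. The group of transgenic tumour cells had 2 replicates, and Mx1, Mx2, Rnf213 and Ddx60 have no measured change here.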
